A study of Mus musculus with 3 samples.

Results

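The genes described here encode vasoactive peptides of the vessel wall, their receptors and the enzymes that process them. The ligand genes are Edn1, Apln and Adm, the receptor genes are Ednrb, Aplnr, Calcrl with its partner Ramp2, and Npr1, and the enzyme genes are Ece1 and Ace. They were chosen by gene symbol, with earlier results of these data known, and all 10 were found among the 17583 genes of the deposited table.

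Ribosome-associated RNA of cardiac endothelial cells was sequenced from 3 EC-RiboTag mice. These mice carried the genotype Cdh5-CreERT2;Rpl22tm1.1Psam, in which a tamoxifen-inducible Cre under the endothelial Cdh5 promoter switches the ribosomal protein Rpl22 to a hemagglutinin-tagged form, so that tagged ribosomes can be pulled out of a heart homogenate. All mice shared this genotype and formed a single condition, no control genotype or input library was analysed here, and neither age nor sex is given per mouse. The labels place the hearts on day 7 after coronary ligation, the RiboTag methods of the study name no infarction, and the letters Rz of the sample titles are not spelled out. Elsewhere the study uses RZ for the remote zone of infarcted hearts, in a PCR experiment on the same mouse line and day, so these libraries may come from that zone, which the labels do not state.

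Endothelin-1 is made as a precursor that furin-type proteases and then endothelin-converting enzyme cut to the active peptide. On smooth muscle it constricts vessels through the receptor Ednra, whereas the endothelial receptor Ednrb promotes the release of nitric oxide and clears the peptide. Apelin and adrenomedullin are peptides of the endothelium that act in blood vessel growth, vessel tone and barrier function, while angiotensin-converting enzyme on the endothelial surface produces angiotensin II and breaks down bradykinin, and Npr1 is the guanylyl cyclase receptor for the natriuretic peptides of heart muscle.

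The coding sequences of the 3 mature peptides are shown because these peptides are the products of the ligand genes of this group. They were read from the mouse genome GRCm39, 5′ to 3′ on the coding strand, and each lies within a single coding exon. The Edn1 stretch, chr13:42457125-42457190 on the plus strand in exon 2 of 5, encodes the 21 residues of endothelin-1 and 1 codon more, and the capitals mark the codons on either side of the bond that endothelin-converting enzyme cuts. The Apln stretch, chrX:47117176-47117217 on the minus strand in exon 2 of 3, encodes the last 13 residues of the precursor, and the capitals mark the stop codon. The Adm stretch, chr7:110228103-110228255 on the plus strand in exon 4 of 4, encodes the 50 residues of adrenomedullin, and the capitals mark the glycine codon after it, whose product is used by the enzyme Pam to amidate the peptide.
Edn1: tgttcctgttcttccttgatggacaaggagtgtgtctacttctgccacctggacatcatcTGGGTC
Apln: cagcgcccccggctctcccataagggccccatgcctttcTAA
Adm: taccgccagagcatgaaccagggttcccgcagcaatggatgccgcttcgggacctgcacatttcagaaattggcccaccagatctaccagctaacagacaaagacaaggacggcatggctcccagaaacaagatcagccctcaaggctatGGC

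The values are counts of the reads left after removal of duplicates, which the authors normalized with DESeq2 and rounded, here called normalized counts. The effect of this removal on high levels was not tested. They summed to between 7149102 and 7268785 per mouse, and the step that a single read leaves in the low values corresponds to between 6755000 and 7566000 reads. Levels of different genes were compared per kilobase, by the canonical transcript where no other length is named. The 12 endothelial marker genes were all listed and had a median level of 690 ± 13.4 normalized counts per kilobase (SD, n = 3), against 97.4 ± 11.9 for 7 fibroblast genes, 43.8 ± 6.96 for 9 mural genes and 23.0 ± 5.49 for the 7 listed of 8 leukocyte genes. The 10 cardiomyocyte markers were also high, at 565 ± 18.9 per kilobase, so RNA of heart muscle was present in the immunoprecipitates. Its part in the levels below was not tested.

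All members were expressed at moderate to high levels. Their median level was 352 ± 6.37 normalized counts per kilobase (SD, n = 3), beside 72.7 ± 1.91 over the 17475 genes with a known transcript length and 176 ± 1.11 over the 9356 of them whose mean normalized count was 200 or more. Each of the 10 members lay above the last of these medians. Fewer cells expressing a gene and less of its RNA per cell cannot be told apart in such bulk libraries.

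**Figure D1:**
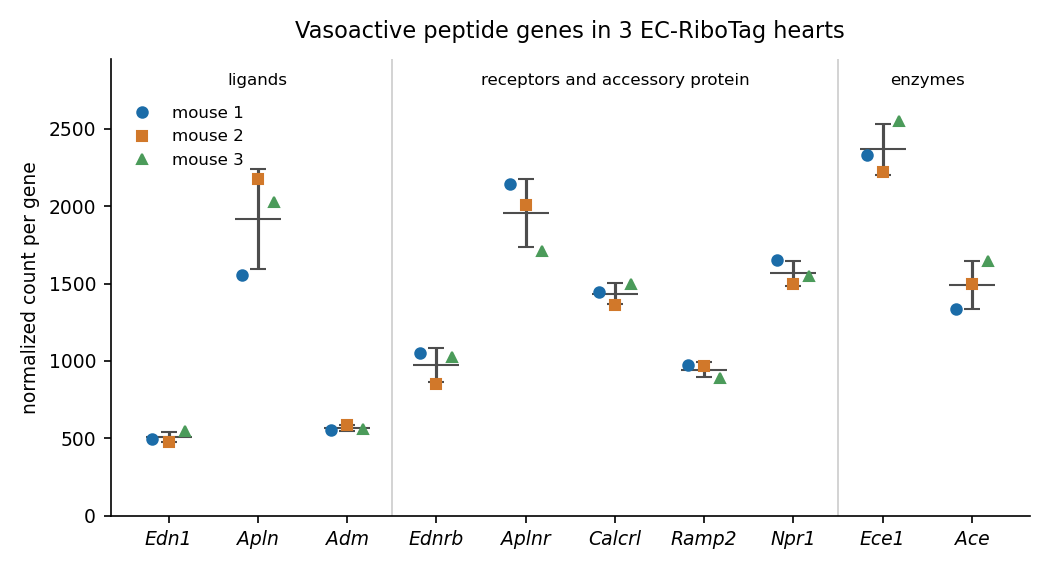
Normalized counts of the 10 members in each of the 3 mice (points) with the mean and SD over mice (lines), grouped into ligands, receptors and enzymes. The counts of Apln ranged from 1555 to 2174 over the mice, the widest spread of the members, and those of Adm from 553 to 587, the narrowest. Counts are not divided by transcript length here, so heights compare mice within a gene and not genes with each other.

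Among the ligands, Apln stood highest per kilobase, followed by Adm and then Edn1. Apln (chrX:47114023-47123730) encodes the ligand of the apelin receptor and marks sprouting tip cells. Its normalized counts were 1555, 2174 and 2025 in mice 1, 2 and 3, or 600 ± 101 per kilobase (SD, n = 3), a level that 1.60% of genes exceeded. Mouse 1 lay below the other two, which were close to each other. Adm (chr7:110226868-110229027), the gene of a vasodilator peptide that also tightens the endothelial barrier, was the most even member. It had 553, 587 and 560 normalized counts, with its highest mouse 1.06 times its lowest, and a level of 405 ± 12.8 per kilobase. Edn1 (chr13:42454952-42461466) had 498, 479 and 546 normalized counts and 216 ± 14.7 per kilobase, the lowest level of the group by this length, and 21.7% of genes exceeded it.

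Of the receptors, Aplnr was the highest by the canonical transcript. Aplnr (chr2:84966569-84970267), a single-exon gene for the G protein-coupled receptor of apelin, had 2143, 2008 and 1711 normalized counts and 528 ± 59.7 per kilobase (SD, n = 3). Mouse 1, the lowest for the ligand Apln, was the highest for the receptor. Calcrl (chr2:84160970-84255755) encodes the receptor that binds adrenomedullin when it is paired with a protein of the Ramp family. Its normalized counts of 1445, 1361 and 1497 gave 294 ± 14.1 per kilobase. Ramp2 (chr11:101136854-101150372), the partner that turns Calcrl into an adrenomedullin receptor, had 974, 965 and 887 normalized counts and 453 ± 23.0 per kilobase. Mice 1 and 2 were close to each other and mouse 3 was lower.

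The level of Ramp2 depends on the transcript it is divided by. Its canonical transcript in the annotation runs on into the neighbouring gene Vps25, and 1109 of its 2080 bases (53.3%) lie in exons of Vps25 on the same strand, while the other 9 members share no base with another gene in this way. The authors left out reads that overlap several genes, and Vps25, all of whose canonical bases are shared, was listed at 16, 17 and 17. Divided by the 971 bases that only Ramp2 holds, its level was 970 ± 49.3 per kilobase, and by its transcript in the consensus coding sequence set (CCDS, 1308 bases) it was 720 ± 36.6, in both cases the highest of the 10 members. By all annotated exons joined it was 237 ± 12.1.

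Ednrb (chr14:104052061-104081838), the endothelial endothelin receptor, had 1052, 851 and 1022 normalized counts and 242 ± 26.9 per kilobase. Mouse 2 was the lowest and the other two were close together. Npr1 (chr3:90357898-90373173), which makes cyclic GMP when atrial or B-type natriuretic peptide binds, had 1652, 1495 and 1548 normalized counts and 259 ± 13.2 per kilobase. The highest mouse was 1.24 times the lowest for Ednrb and 1.11 times for Npr1.

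Both enzymes were well expressed, Ece1 more than Ace. Ece1 (chr4:137589548-137692540), the membrane protease that releases endothelin-1 from its precursor, had 2329, 2222 and 2547 normalized counts and 489 ± 34.2 per kilobase (SD, n = 3), a level that 3.42% of genes exceeded. Ace (chr11:105858771-105880790), the peptidase that converts angiotensin I, had 1337, 1496 and 1647 normalized counts and 287 ± 29.8 per kilobase. Mouse 3 was the highest for both enzymes, by 1.15 times the lowest mouse for Ece1 and 1.23 times for Ace.

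From the highest to the lowest level per kilobase, the order was Apln, Aplnr, Ece1, Ramp2, Adm, Calcrl, Ace, Npr1, Ednrb and Edn1. Of the 9 neighbouring pairs in this order, 3 were apart by a gap wider than either SD, namely Ece1 over Ramp2, Ramp2 over Adm and Adm over Calcrl, and the number was 5 without mouse 1. The widest gap, 111 normalized counts per kilobase, separated Adm from Calcrl. The gap did not exceed both SDs for Apln and Aplnr, Aplnr and Ece1, Calcrl and Ace, Ace and Npr1, Npr1 and Ednrb, and Ednrb and Edn1. Over 5 ways to define the length, Apln kept place 1 or 2, Aplnr places 1 to 3 and Ece1 places 3 to 4, while Ramp2 moved from place 1 to place 7, Ace from place 6 to place 10 and Edn1 from place 7, by coding length, to place 10.

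**Figure D2:**
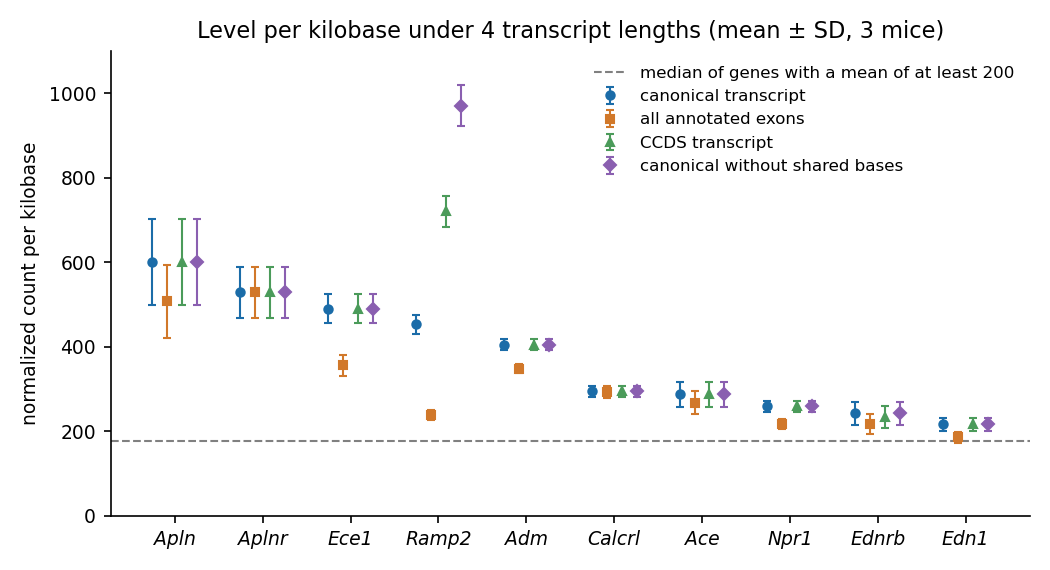
Level of each member in normalized counts per kilobase (mean ± SD, 3 mice) under 4 transcript lengths, in the order given by the canonical transcript, with the median of genes with a mean of at least 200 as a dashed line at 176. This median was taken by the canonical transcript and is no reference for the other lengths. Calcrl and Ace move by less than their SD, Ece1 is lower (356 against 489) with all exons joined, and Ramp2 moves from 237 with all exons joined to 970 without the bases it shares with Vps25.

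Genes of the same system were then compared within each mouse, as log2 ratios of levels per kilobase with a pseudocount of 0.5. Of 12 pairs, 11 gave a ratio, and Ece1 could not be set against Ece2 because Ece2 was not listed. An exact two-sided sign-flip permutation test cannot give a p below 0.25 with 3 mice, so no ratio could pass a threshold of 0.05. Every pair whose sign was the same in all 3 mice had this p of 0.25 in the exact test (adjusted p = 0.344 over the 11 pairs by Benjamini-Hochberg), and the other 3 had an exact p of 0.5 (adjusted p = 0.5).

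In the endothelin system, the enzyme Ece1 exceeded the ligand Edn1 by a log2 ratio of 1.18, 1.17 and 1.18 in the 3 mice, 2.26-fold on average and 1.25-fold by coding length. The SD of this ratio over mice, 0.0060, was below the 0.071 given by counting error, estimated without account of removed duplicates. The near identity of the 3 values is therefore no measure of how constant the ratio is. The receptor Ednrb exceeded Edn1 by 0.30, 0.05 and 0.13, a difference close to the spread between mice (0.16 ± 0.13, n = 3). Ednra, the receptor of smooth muscle, was listed at 74, 91 and 86 normalized counts. Ednrb stood above it by 4.66, 4.05 and 4.40 on the log2 scale, 20.7-fold on average and 11.2-fold by coding length. The 9 mural markers, which include genes of smooth muscle, summed to 1755, 2218 and 2500 in the same mice. The part of mural RNA in the level of Ednra was not tested.

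The ratio of the receptor Aplnr to its ligand Apln was 0.25, −0.32 and −0.45 on the log2 scale, with a mean of −0.17 ± 0.38 (SD, n = 3). By the canonical transcript, the receptor was the higher of the pair in mouse 1 and the ligand in mice 2 and 3. The mean ratio was −2.26 by coding length, with the ligand 4.78-fold higher, and 0.068 with all exons joined.

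In the adrenomedullin system, Calcrl was below Adm in each mouse, with log2 ratios of −0.42, −0.59 and −0.38, and level with it by coding length (mean 0.0071). Ramp2 was above Calcrl by 0.66, 0.74 and 0.48 by the canonical transcript. The mean of this ratio was 0.62 there, 1.72 without the bases shared with Vps25, −0.12 by coding length and −0.30 with all exons joined, so its direction depends on the length. Of the 3 Ramp genes, whose products decide which peptide Calcrl binds, Ramp1 forms the receptor for calcitonin gene-related peptide (CGRP), and Ramp2 and Ramp3 form adrenomedullin receptors. Ramp1 was listed at 22, 13 and 18 normalized counts and Ramp2 stood above it by 5.78, 6.50 and 5.92 on the log2 scale, 67.0-fold on average, with a range from 32.8-fold by coding length to 144-fold without the shared bases. Ramp3, at 759, 620 and 509, differed from Ramp2 in no constant direction by the canonical transcript, the log2 ratio of Ramp2 to Ramp3 being −0.38, −0.10 and 0.06. Here too the length sets the direction, since the mean ratio was −0.14 by the canonical transcript and 0.96 without the bases shared with Vps25.

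Ace was below Ece1 in each mouse, by −0.91, −0.68 and −0.74 on the log2 scale. The mean ratio was −0.77, and −1.47 by coding length.

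Npr1 and Npr2, the guanylyl cyclase receptors for atrial and C-type natriuretic peptide, differed in no constant direction by the canonical transcript, with log2 ratios of Npr1 to Npr2 of −0.12, 0.07 and −0.12. Npr3, the receptor that clears these peptides, had 1589, 914 and 2228 normalized counts, and Npr1 was below it by −0.98, −0.33 and −1.56. Neither of these comparisons holds for every length, since with all exons joined Npr1 was above Npr2 by 0.93 and above Npr3 by 0.86.

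**Figure D3:**
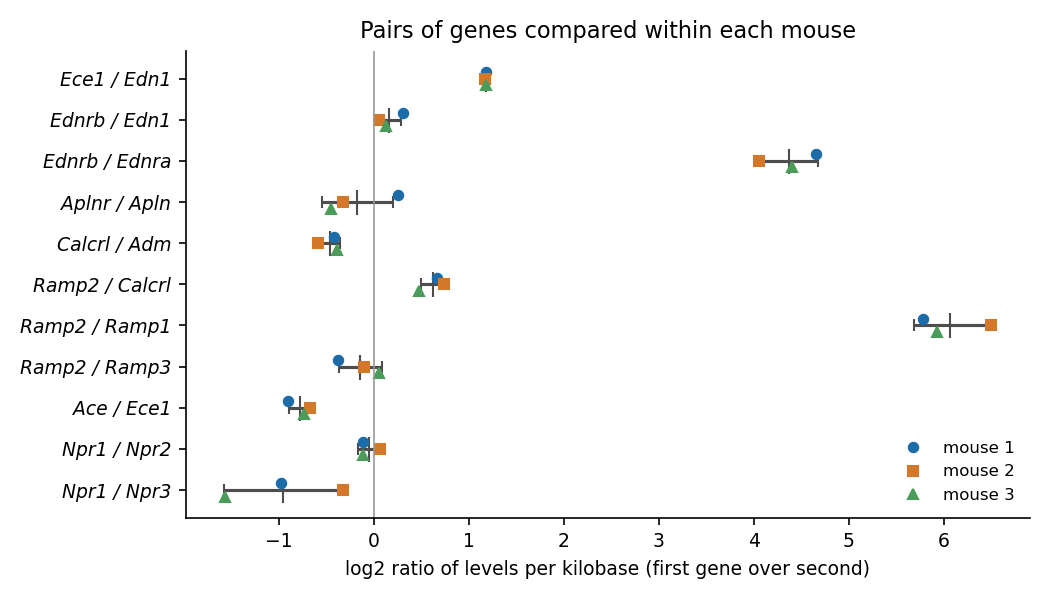
Log2 ratio of levels per kilobase of the canonical transcript for the 11 pairs, the first gene over the second, in each mouse (symbols) with the mean and SD over 3 mice (bars). Ednrb over Ednra and Ramp2 over Ramp1 lie at 4 or more in every mouse, and the ratio of Aplnr to Apln changes sign between mice.

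The members varied between mice about as much as other genes did, in a comparison not matched for level. The median of the mean normalized counts was 1464 for the members and 587 over genes with a mean of at least 200. A gene counts as variable here when its coefficient of variation (SD divided by mean) over the mice is above 20% at a mean of at least 200, which held for 749 of 9358 genes (8.00%) and for 0 of the 10 members, a count near the background. Their coefficients ranged from 3.17% for Adm to 16.8% for Apln with a median of 6.90%, beside a median of 7.37% over the 9358 genes that passed this minimum. Those of Calcrl, Ramp2 and Npr1 were 4.78%, 5.08% and 5.10%, of Edn1 and Ece1 6.80% and 7.00%, and of Ace, Ednrb and Aplnr 10.4%, 11.1% and 11.3%. Counting error alone gives coefficients from 2.05% for Ece1, with about 2378 reads per mouse, to 4.43% for Edn1, with about 510. For Adm it gives 4.20%, above the 3.17% between mice, while the spread of Apln was 16.8% against 2.28%. This estimate takes no account of the removal of duplicate reads, so it may not match the true counting error. Without mouse 3, Apln passed the threshold at 23.5%, and 8.71% of genes did so.

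**Figure D4:**
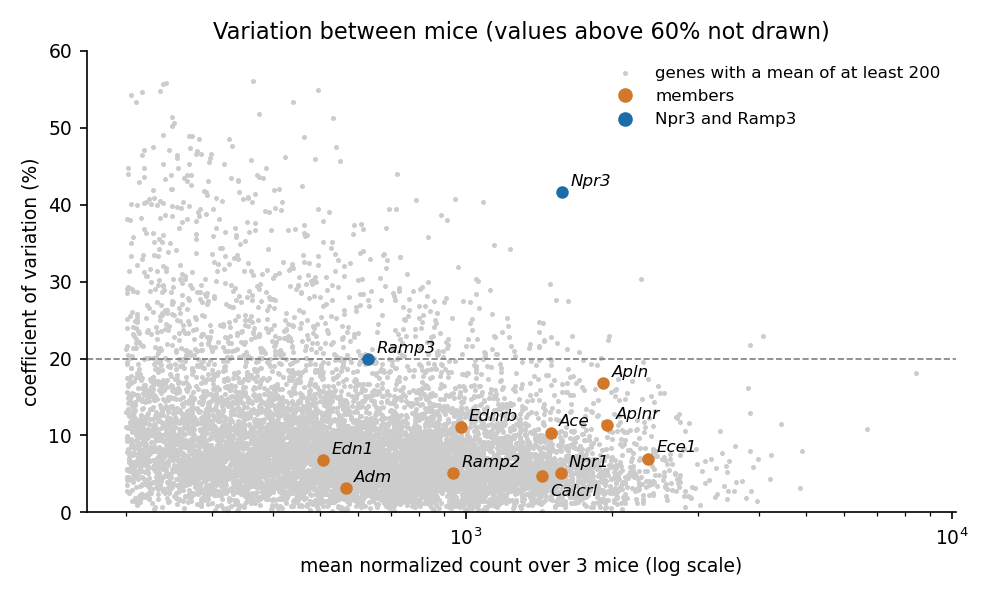
Coefficient of variation over 3 mice, in percent, against the mean normalized count on a log axis, with each gene with a mean of at least 200 as a grey point and the 10 members, Npr3 and Ramp3 named. Genes beyond the top of the axis are not drawn. The members lie below the 20% line, from 3.17% for Adm to 16.8% for Apln, and Npr3 lies above it at 41.7%.

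Apln had the highest coefficient of variation of the members. The 3 genes passing the same minimum whose deviations over the mice were nearest to its own were Gstcd with 192, 269 and 249 normalized counts, Adamts2 with 257, 361 and 337, and Mov10 with 369, 515 and 485. Their root mean square differences from Apln were 0.0038, 0.0039 and 0.0069 on the log2 scale, over 3 mice only. Close matches were bound to be found among the 9358 genes that passed this minimum, so these small differences show no link to Apln. Mouse 1, the lowest for Apln, was also the lowest for the summed markers of fibroblasts (2659, 3172 and 3531), leukocytes (447, 681 and 681), mural cells (1755, 2218 and 2500) and lymphatic endothelium (3006, 3717 and 4316), with 5 of 7, 6 of 7, 6 of 9 and 5 of 5 listed markers lowest there. The cardiomyocyte markers went both ways, with 4 of 10 lowest and 6 of 10 highest in mouse 1. The endothelial markers summed to 28759, 27701 and 27593, highest in mouse 1. The endocardial markers summed to 3777, 2933 and 5089, lowest in mouse 2, with 1 of 4 lowest in mouse 1. The part of these differences in the spread of Apln was not tested.

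The 10 members belong to a wider list of 64 genes of vasoactive peptide systems, of which 46 were listed, 26 had a mean of at least 200 and 1 was variable. The 26 are 56.5% of the 46, beside 53.2% over all 17583 genes of the table. They include the 10 members, and the other 16 came from 54 genes, listed or not. With a single condition no gene of the list could be tested for a rise or fall. In the endothelin system 4 of 10 genes reached a mean of 200, in the apelin system 2 of 3, in the adrenomedullin and CGRP system 7 of 12, in the renin-angiotensin system 5 of 13, in the natriuretic peptide system 6 of 10, in the bradykinin system 2 of 6 and among other vasoactive peptides 0 of 10. These counts are out of all genes of each system, listed or not, so the 53.2% over listed genes is no background for them.

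Of the other enzymes that process these peptides, Furin and Pam were above the median of genes with a mean of 200 or more. Furin, which makes the first cuts in the endothelin precursor, had 1659, 1690 and 1794 normalized counts and 379 ± 15.6 per kilobase (SD, n = 3), and Pam, which amidates adrenomedullin, had 1775, 1729 and 1849 and 419 ± 14.2 per kilobase. Ackr3, an atypical receptor that takes up adrenomedullin, had 931, 916 and 875. Crcp, named for its part in CGRP receptor signalling, had 467, 431 and 398. Whether Furin stood above Edn1, and Pam above Adm, depends on the length: with all exons joined, Furin was at 167 and Edn1 at 185 per kilobase, and Pam at 132 and Adm at 348.

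The genes of the angiotensin precursor, of renin and of the angiotensin receptors were low or not listed. Agt, the precursor, was listed at 5, 2 and 6, Ren1, renin, was not listed, and the receptor Agtr1a was listed at 70, 59 and 64. Besides Ace, the genes of this system with a mean of at least 200 were Agtrap, a protein that binds the angiotensin receptor (1280, 1162 and 1064), Atp6ap2, the prorenin receptor (663, 695 and 577), and the peptidases Lnpep (1351, 1337 and 1451) and Prcp (1026, 1030 and 956).

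Nppa, the atrial natriuretic peptide of cardiomyocytes, had 329, 415 and 318 normalized counts, and Corin, the protease that activates it, had 336, 365 and 344. The 10 cardiomyocyte markers had a median of 571, 581 and 544 per kilobase in mice 1, 2 and 3 and summed to 20679, 21339 and 24237, a sum led by Ttn (7379, 7743 and 10190), and the part of cardiomyocyte RNA in these genes was not tested. Npr2 had 1320, 1050 and 1237, and Pde5a, which degrades cyclic GMP, had 185, 240 and 247. Npr3 was the variable gene of the list, with a coefficient of variation of 41.7%. It is also a marker of the endocardium. The other 3 endocardial markers summed to 2188, 2019 and 2861, in the same order of mice as Npr3. Cytl1 (555, 424 and 614) and Tmem108 (328, 209 and 589) had this order, whereas Nfatc1 (1305, 1386 and 1658) was lowest in mouse 1. Their part in the spread of Npr3, and in its ratio to Npr1, was not tested. The remaining genes with a mean of at least 200 were the carboxypeptidases of the bradykinin system, Cpd with 2134, 2034 and 2198 and Cpm with 495, 492 and 523.

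**Figure D5:**
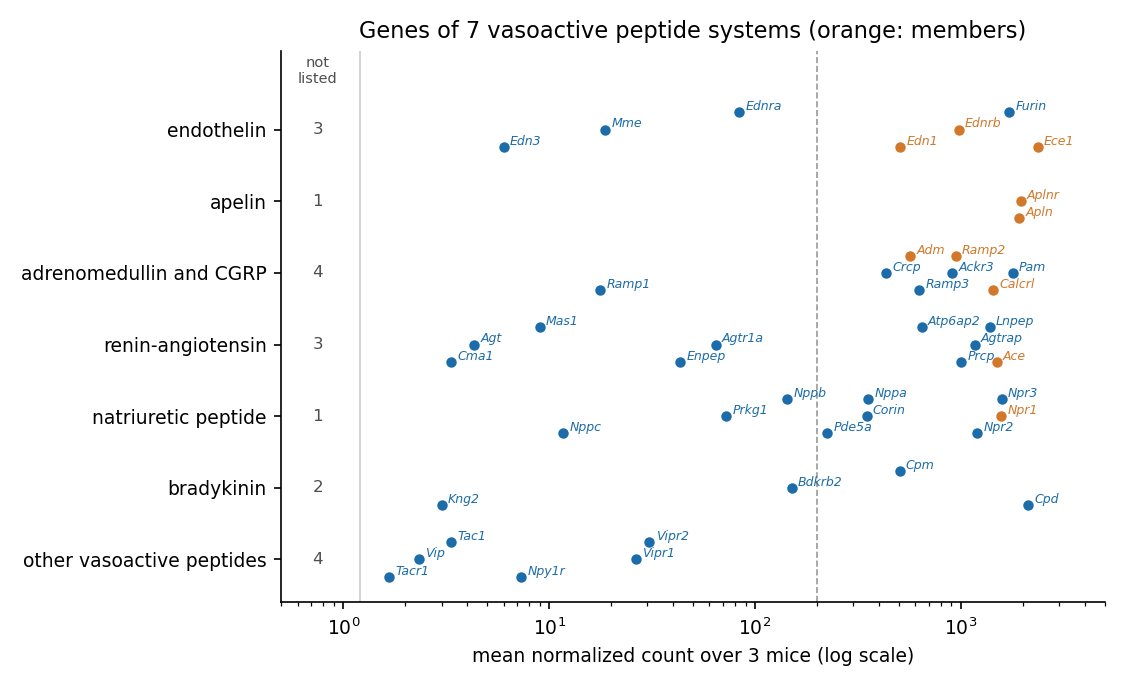
Mean normalized count over 3 mice, on a log axis, of the listed genes of the 7 vasoactive peptide systems, with the members in orange, the other genes in blue, a dashed line at 200 and the number of genes not listed at the left. All members lie to the right of the line, and Ednra and Ramp1 lie to the left of it. Counts are not divided by transcript length.

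Of the 64 genes, 18 were not listed, and the lowest value that a listed gene reached in its highest mouse was 4. They include the ligand genes Edn2, Apela, Adm2, Calca and Calcb, the enzymes Ece2 and Kel, and the receptors Calcr, Agtr1b, Agtr2 and Bdkrb1. A gene that is missing here was not necessarily low. In the annotation used here for lengths, canonical bases of some of them lie in exons of another gene on the same strand. The share is 86.3% for Ece2, 92.1% for Pde2a and 30.8% for Apela. The authors left out reads that overlap several genes in their own Ensembl annotation. Whether that annotation holds the same exons was not checked.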

How the data were processed

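Ribosome-associated RNA from hearts of 3 EC-RiboTag mice was read from 1 end over 72 bases. Per the methods and the processing notes of the submitters, the authors used Trimmomatic 0.39, STAR 2.7.11a (mm39, Ensembl annotation) and Picard 3.1.1, removed multi-mapping, ribosomal and mitochondrial reads, counted on the correct strand with featureCounts 2.0.4, leaving out reads that overlap several genes, and normalized with DESeq2 1.36.0. The unit of the deposited values is therefore a score, a count divided by a size factor and rounded to a whole number, and no count model was fitted. Counting error was taken as the inverse square root of the approximate reads, without account of the removal of duplicates.

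Levels were divided by the Ensembl canonical transcript of GENCODE vM39 (GRCm39, the assembly of mm39), known for 17475 of 17583 genes (99.4%). The exons of the Ensembl annotation that the authors counted with may differ from it. Lengths and shared bases given here may therefore not match those behind the counts. Gene coordinates are those of the deposited table. Pair ratios used a pseudocount of 0.5 and an exact two-sided sign-flip test. Variable genes had a coefficient of variation over 20% at a mean of at least 200. The rules were tested on simulated data. Python 3.11.15, numpy 2.4.6, pandas 2.3.3 and matplotlib 3.10.9 were used.

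Named are the 10 members, the genes of the pairs, the genes of the wider list with a mean of at least 200, and the 3 genes nearest to the member with the highest coefficient of variation. Vps25, Agt, Ren1, Agtr1a, Pde2a and the other genes named as not listed or near 0 were added after their values were seen. Members, pairs and lists were chosen with earlier results of these data known. Alternatives were other scalings, lengths and pseudocounts, other filters, and leaving out each mouse. The CCDS length and the length without shared bases were added after seeing the data. A gene of the wider list and the pair that holds it are not reported here.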

Additional observations from a re-analysis of the deposited data

How the results depend on the processing

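Scaling by trimmed means or to equal totals moved 20 of 20 member levels by less than their SD over mice. The values were already normalized to nearly equal totals, and the multipliers lay between 0.989 and 1.006, so larger moves could not occur. Leaving out a mouse moved 30 of 30 levels by less than their SD. With 3 mice the mean cannot shift by a full SD in this way, so this outcome was fixed in advance. The length mattered more. The median of the members was 281 per kilobase with all exons joined and 975 by coding length, and by coding length 7 neighbouring members in the order differed. Leaving out a mouse gave 3 to 5 such neighbours (5 without mouse 1) and 0 to 1 variable members (1, Apln, without mouse 3). Of 88 pair ratios recomputed, 77 kept their direction, and no other pseudocount or left-out mouse turned 1. By coding length the log2 ratio turned for Ednrb to Edn1 (−0.19), Calcrl to Adm (0.0071), Ramp2 to Calcrl (−0.12) and Npr1 to Npr2 (0.37). With all exons joined it turned for Aplnr to Apln (0.068), Ramp2 to Calcrl (−0.30), Npr1 to Npr2 (0.93) and Npr1 to Npr3 (0.86). By CCDS length it turned for Ramp2 to Ramp3 (0.53) and Npr1 to Npr3 (0.27), and without shared bases for Ramp2 to Ramp3 (0.96). These changes come from the lengths alone, since the normalized counts are the same. With 3 mice no exact p can fall below 0.25. The mice share 1 condition, so conditions could not be compared, and the pairs are of genes within a mouse. The share of reads that each transcript of a gene gave was not analysed here.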

Other observations

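Of the genes of the wider list with a mean below 200, Prkg1, the cyclic GMP-dependent kinase, had 46, 50 and 121 normalized counts in mice 1, 2 and 3. Enpep, the aminopeptidase that trims angiotensin II, had 71, 30 and 29. Bdkrb2, the constitutive bradykinin receptor, had 105, 185 and 163. These are descriptions chosen after their values were seen, and none was tested.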
